A study of Homo sapiens with 12 samples.

Results

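Lysosomal genes were followed as a set of 37 members: 19 hydrolases and their activators, 6 proteins of the lysosomal membrane and 12 genes of the vacuolar proton pump (V-ATPase). A member was taken where a row of the array table carried its symbol and no other, and a gene with more than 1 such row was read from its brightest row. All 37 members were found among the 18417 genes that the table names in this way. RNA came from HEK293T cells, an embryonic kidney line that makes the large T antigen of SV40 virus, which binds p53. The 4 groups of 3 arrays were shUBE4B+shLSD1 (both shRNAs), shUBE4B (shRNA against the ubiquitin ligase UBE4B), shLSD1 (shRNA against the histone demethylase LSD1, gene KDM1A) and shCTRL (nontargeting shRNA). All groups shared the cell line, transient transfection with shRNA plasmids and a knockdown of 78 h. By the study's own description, all 4 groups also held a misfolding mutant of superoxide dismutase, SOD1 G85R, which the sample labels do not name. Transient transfection can leave cells without plasmid in a dish, so each value is a mean over all cells of that dish. In such bulk RNA, fewer cells of a type and less RNA per cell cannot be told apart.

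Lysosomes degrade proteins, glycans and lipids with hydrolases that work in an acid lumen. The V-ATPase makes that lumen acid: its peripheral V1 part hydrolyses ATP and its V0 part carries protons through the membrane. Many of these genes are known targets of TFEB and its relatives TFE3 and MITF, transcription factors that bind an E-box within a longer motif called CLEAR, and the pathway is a main route by which cells clear aggregated protein.

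The values are log2 signals that are comparable between arrays for a gene and not between genes, so every comparison below is within a gene. A gene was called, and is said to have risen or fallen, where limma gave a p under 0.05 after Benjamini-Hochberg adjustment over all 18417 genes. UBE4B had 8.75, 9.11 and 8.94 in shUBE4B+shLSD1 cells, 8.89, 9.06 and 8.89 in shUBE4B cells, 10.38, 10.44 and 10.45 in shLSD1 cells, and 10.39, 10.38 and 10.28 in shCTRL cells. KDM1A had 9.58, 9.89 and 9.87 in shUBE4B+shLSD1 cells, 10.94, 10.98 and 10.93 in shUBE4B cells, 9.46, 9.84 and 9.61 in shLSD1 cells, and 10.91, 10.83 and 10.96 in shCTRL cells. Both targets were thus lower on every array that received their shRNA. The 8 markers of HEK293 cells averaged 9.15 to 9.35 on the shUBE4B+shLSD1 arrays, 9.18 to 9.28 on the shUBE4B arrays, 9.22 to 9.37 on the shLSD1 arrays and 9.27 to 9.40 on the shCTRL arrays. Of these markers, the intermediate filament gene INA fell with both shRNAs (log2 change -0.35) and with shUBE4B alone (-0.30), and the cadherin CDH2 fell in the double against the shLSD1 knockdown (-0.23). Their part in the results below was not tested. None of 9 macrophage markers, a cell type rich in lysosomes, was called in any comparison, and their average was 5.62 to 5.77 on all 12 arrays. Of 8 colon epithelium markers, 1 was called: EPCAM, an adhesion molecule of epithelia that lies among the 40% dimmest genes, fell in the double knockdown (log2 change -0.58) and with shUBE4B (-0.55). It had 5.88, 6.02 and 6.07 in shUBE4B+shLSD1 cells, 6.00, 6.02 and 6.04 in shUBE4B cells, 6.33, 6.54 and 6.59 in shLSD1 cells, and 6.59, 6.19 and 6.94 in shCTRL cells. The list averaged 6.27 to 6.38 on the shUBE4B+shLSD1 arrays, 6.31 on each of the shUBE4B arrays, 6.38 to 6.47 on the shLSD1 arrays and 6.39 to 6.47 on the shCTRL arrays, and its part in the results was not tested. The shCTRL arrays were the least alike: the median SD of the members was 0.06 in each knockdown group and 0.10 in shCTRL, and shCTRL replicate 2 differed most from its group, with a median difference of 0.14 to 0.15 per gene.

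The changes were small and went both ways. Against control, 5 of 37 members were called in the double knockdown (2 rose, 3 fell), with 7.56% of all genes called. With shUBE4B 5 were called (3 rose, 2 fell), with 10.1% of all genes called, and with shLSD1 0 were, with 0.820% of all genes called. Among members, 3 were called in both the double and the shUBE4B knockdown (GUSB, ARSA and ATP6V1H), and these comparisons share the shCTRL arrays. In all 6 comparisons together 10 members were called at least once and 27 never. Over all genes, calls shared by those 2 comparisons or made in any of the 6 were not counted. Neither number of members can thus be set beside a share of all genes. The largest change of any member against control was 0.38 on the log2 scale, and the standard errors of the members in pairwise comparisons were 0.06 to 0.11. The median change over the 37 members was -0.06 in the double knockdown, -0.04 with shUBE4B and -0.0009 with shLSD1, against medians of -0.01, -0.03 and -0.01 over all genes.

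**Figure D1:**
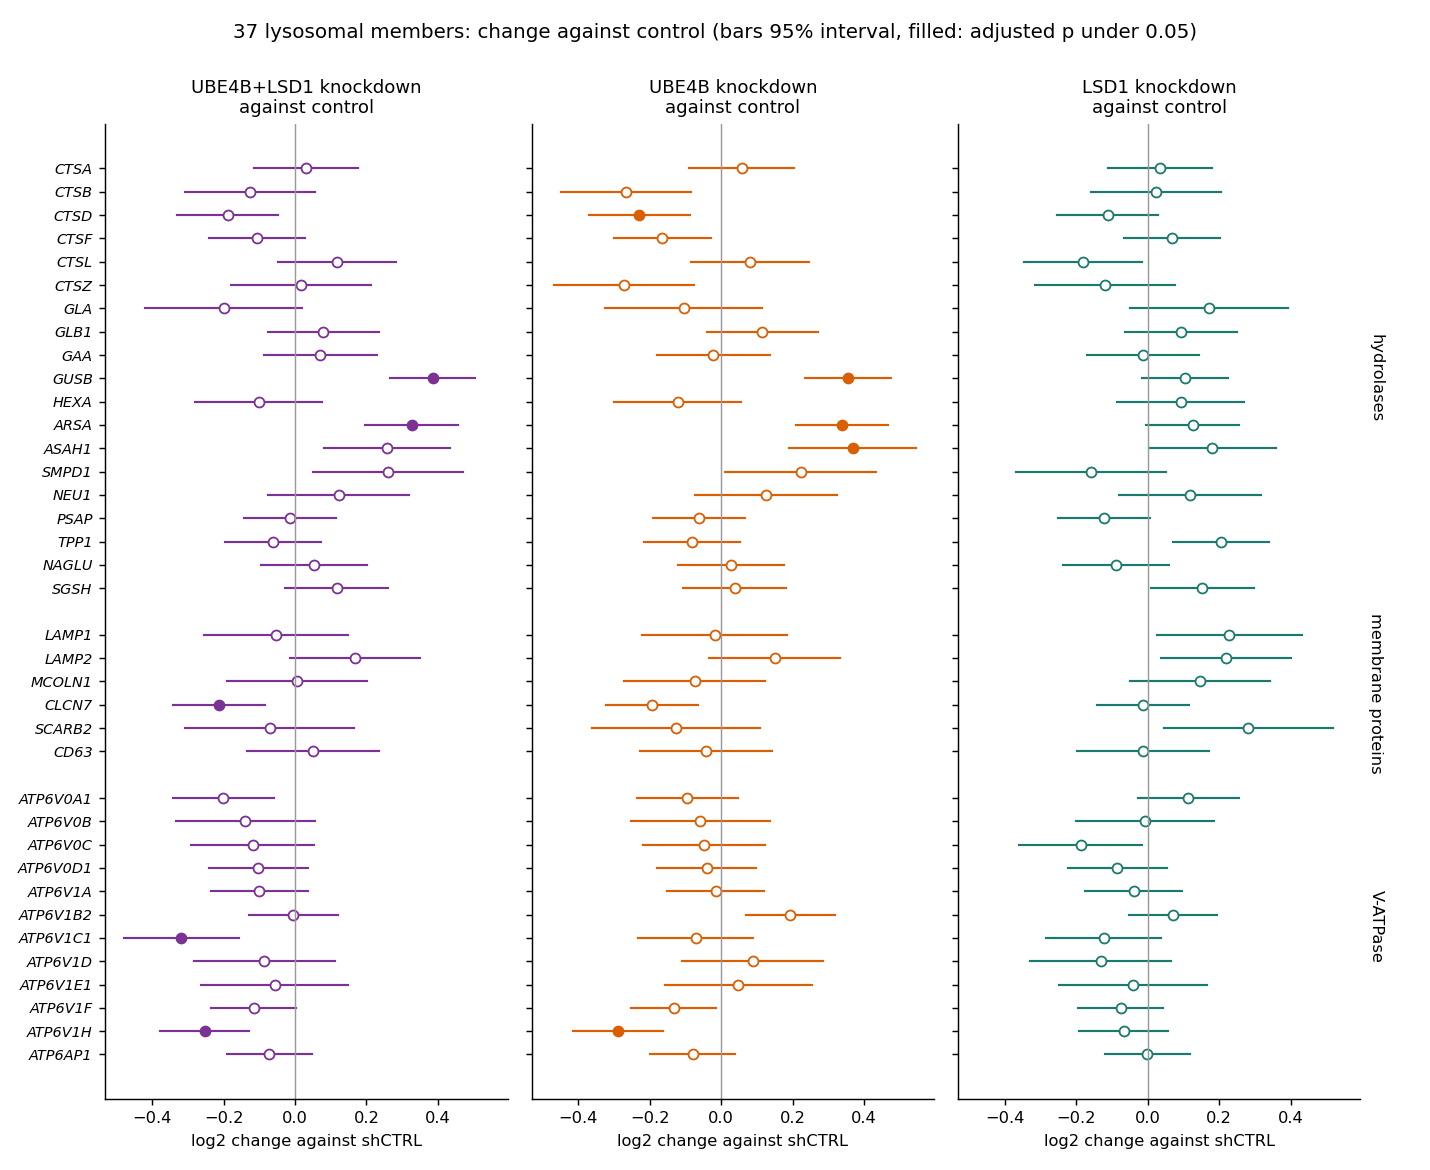
Log2 change of each of the 37 members against shCTRL in the double knockdown (left), the shUBE4B knockdown (middle) and the shLSD1 knockdown (right), with 95% intervals as bars and filled points for an adjusted p under 0.05. Filled points stand at 5 members on the left, 5 in the middle and 0 on the right, and all 12 V-ATPase points on the left lie below 0 (11 with arrays centred on their medians).

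The promoter windows give the sequences at which the known regulators could bind. RefSeq windows of 300 bases (250 before and 50 from the gene start, assembly GRCh38.p14) were held for 25 of the 37 members, and the other 12 (ARSA, ASAH1, ATP6V1A, ATP6V1B2, ATP6V1C1, ATP6V1H, CTSB, HEXA, LAMP2, NAGLU, PSAP and SGSH) were not searched. The E-box core CACGTG, which reads the same on both strands, stood in 11 of the 25 windows. Over the 14239 measured genes for which a window was held, the share was 8.88%. The longer TCACGTGA, a palindrome that contains the core, stood in 5 windows (CTSA, GAA, LAMP1, MCOLN1 and ATP6V0D1), against 1.47% of all windows. GTCACGTG, searched on both strands and also overlapping the core, stood in 8, against 3.48% of all windows. The 4 stretches that follow include LAMP1, which held the most copies. The others are CLCN7 and CTSD, which held the core and fell against control, and GUSB, which held none and rose. The windows of SMPD1, TPP1 and ATP6V0A1, not printed, also held none. In the double against the shLSD1 knockdown SMPD1 rose, while TPP1 and ATP6V0A1 fell. Capitals mark the core, and the last 20 bases lie within the gene.
LAMP1: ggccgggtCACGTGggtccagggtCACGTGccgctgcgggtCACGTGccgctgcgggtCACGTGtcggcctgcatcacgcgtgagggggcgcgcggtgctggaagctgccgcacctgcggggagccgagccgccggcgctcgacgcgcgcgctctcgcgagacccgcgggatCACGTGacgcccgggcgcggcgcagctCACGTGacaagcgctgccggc
CLCN7: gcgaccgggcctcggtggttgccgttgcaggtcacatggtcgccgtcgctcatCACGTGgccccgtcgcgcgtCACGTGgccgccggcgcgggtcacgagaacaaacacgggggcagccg
CTSD: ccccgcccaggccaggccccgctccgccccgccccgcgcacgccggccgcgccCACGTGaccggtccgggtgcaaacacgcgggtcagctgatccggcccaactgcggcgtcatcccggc
GUSB: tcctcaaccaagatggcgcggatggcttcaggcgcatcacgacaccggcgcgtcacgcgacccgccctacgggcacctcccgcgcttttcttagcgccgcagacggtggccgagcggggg
The LAMP1 stretch lies at chr13:113297039-113297258, plus strand, and the 220 bases hold 6 cores. The CLCN7 stretch lies at chr16:1475009-1475128, minus strand, with 2 cores. The CTSD stretch lies at chr11:1763908-1764027, minus strand, with 1 core. The GUSB stretch lies at chr7:65982194-65982313, minus strand, with none.

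**Figure D2:**
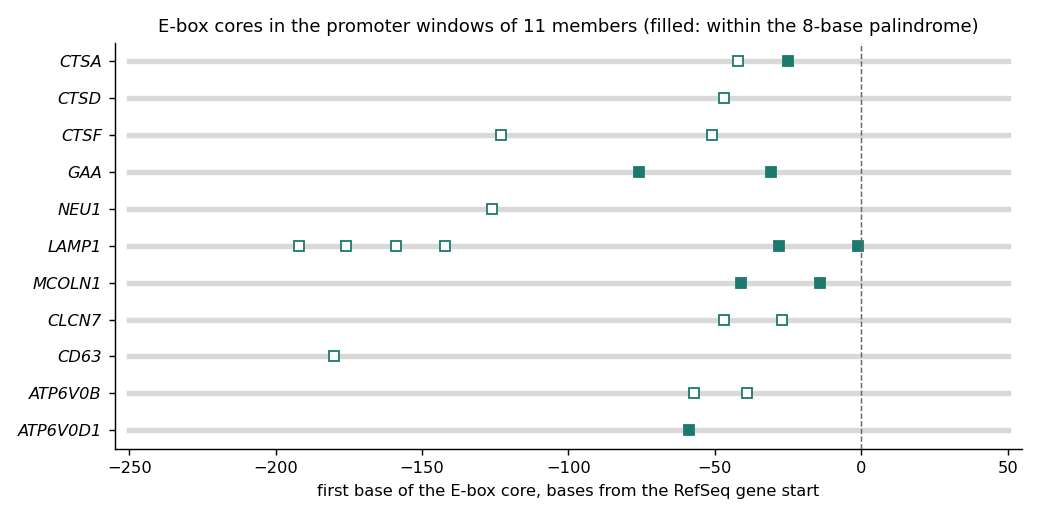
Position of each E-box core in the promoter windows of the 11 members that hold one, in bases from the RefSeq gene start (dashed line), with filled squares where the core lies within the 8-base palindrome. The first bases of the 22 cores lie between 192 bases and 1 base before the gene start, and LAMP1 holds 6 of the cores.

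Members with the E-box core had small changes. Against control, the median log2 change of the 11 was -0.05 in the double knockdown (range -0.21 to 0.12), -0.04 with shUBE4B and -0.01 with shLSD1. The 14 members whose window lacked the core had medians of -0.07, -0.06 and -0.02 in the same 3 comparisons. Of the members with the core, CLCN7 fell in the double knockdown and CTSD fell with shUBE4B. GUSB, without the core, rose in both. Of the 12 members without a window, 1 rose and 2 fell in the double knockdown, and 2 rose and 1 fell with shUBE4B. Whether the core goes with the direction of change was not tested. The 3 regulators were picked after their values were seen. TFEB had a log2 change of -0.03 in the double knockdown (adjusted p = 0.86), TFE3 one of -0.23 (adjusted p = 0.0715) and MITF one of 0.09 (adjusted p = 0.701), none of which passed the test.

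Hydrolases of glycans and sphingolipids held the members that rose against control. GUSB, the beta-glucuronidase of glycosaminoglycan breakdown (transcript cluster 8139859), had log2 signals of 9.85, 9.85 and 9.90 in shUBE4B+shLSD1 cells, 9.80, 9.80 and 9.90 in shUBE4B cells, 9.61, 9.56 and 9.59 in shLSD1 cells, and 9.44, 9.47 and 9.53 in shCTRL cells. All arrays with shUBE4B, alone or with shLSD1, lay above all shLSD1 and shCTRL arrays. In the double knockdown GUSB rose by 0.38 (1.31-fold, standard error 0.06, adjusted p = 0.00111) and by 0.35 with shUBE4B (1.28-fold, standard error 0.06, adjusted p = 0.00224). With shLSD1 the change was 0.11 (adjusted p = 0.445), with all 3 arrays just above those of shCTRL. The symbol GUSB also stands on 7 rows that carry several symbols, which were left out, and how far near-identical gene copies add to its signal was not tested.

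ARSA, the arylsulfatase A that removes sulfate from sulfatides (transcript cluster 8077160), had log2 signals of 7.85, 7.83 and 7.85 in shUBE4B+shLSD1 cells, 7.86, 7.95 and 7.77 in shUBE4B cells, 7.63, 7.63 and 7.67 in shLSD1 cells, and 7.50, 7.48 and 7.57 in shCTRL cells. As for GUSB, the arrays of both shUBE4B groups lay above all others. ARSA rose with both shRNAs by 0.33 (1.25-fold, standard error 0.06, adjusted p = 0.00495) and by 0.34 with shUBE4B (1.26-fold, standard error 0.06, adjusted p = 0.00437). ASAH1, acid ceramidase (transcript cluster 8149534), had log2 signals of 9.58, 9.55 and 9.63 in shUBE4B+shLSD1 cells, 9.61, 9.75 and 9.75 in shUBE4B cells, 9.53, 9.53 and 9.48 in shLSD1 cells, and 9.32, 9.16 and 9.52 in shCTRL cells. The shUBE4B arrays lay above all shCTRL arrays, and so did those of the double knockdown, while 1 of the shCTRL arrays, replicate 3, was well above the other 2. ASAH1 rose by 0.37 with shUBE4B (1.29-fold, standard error 0.08, adjusted p = 0.0143) and had a change of 0.26 with both shRNAs (adjusted p = 0.0767). The ASAH1 call was lost without shUBE4B replicate 2 or replicate 3, each of which left 3 members called (GUSB, ARSA and ATP6V1H), and its change over all alternatives was 0.28 to 0.46. SMPD1, acid sphingomyelinase, which makes the ceramide that ASAH1 splits (transcript cluster 7938100), had log2 signals of 8.00, 7.96 and 7.80 in shUBE4B+shLSD1 cells, 7.95, 7.90 and 7.79 in shUBE4B cells, 7.69, 7.54 and 7.28 in shLSD1 cells, and 7.70, 7.72 and 7.56 in shCTRL cells. Arrays of both shUBE4B groups lay above all shCTRL and shLSD1 arrays. Its change against control was 0.26 in the double knockdown (adjusted p = 0.136) and 0.22 with shUBE4B (adjusted p = 0.161), neither of which passed the test.

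Proteases held the hydrolase that fell against control. CTSD, the aspartic protease cathepsin D (transcript cluster 7945666), had log2 signals of 11.23, 11.15 and 11.16 in shUBE4B+shLSD1 cells, 11.20, 11.18 and 11.04 in shUBE4B cells, 11.31, 11.21 and 11.24 in shLSD1 cells, and 11.37, 11.44 and 11.29 in shCTRL cells. All arrays of the double and the shUBE4B knockdown lay below all shCTRL arrays. CTSD fell with shUBE4B to 85.3% of control (log2 change -0.23, standard error 0.07, adjusted p = 0.043), and had a change of -0.19 with both shRNAs (adjusted p = 0.106). This call stood close to the threshold: it was kept in 6 of 22 alternatives and was lost without any 1 of the 12 arrays except shCTRL replicate 3, and the change was -0.27 to -0.18 over all of them. The cysteine cathepsins CTSB, CTSF and CTSZ had changes of -0.27, -0.17 and -0.27 with shUBE4B, and CTSL one of 0.08, none past the test. CTSZ was the single member below the limit of 7.04 that marks the 40% dimmest genes. TPP1, a serine peptidase (transcript cluster 7946228), had log2 signals of 10.33, 10.25 and 10.42 in shUBE4B+shLSD1 cells, 10.31, 10.35 and 10.27 in shUBE4B cells, 10.61, 10.54 and 10.65 in shLSD1 cells, and 10.40, 10.43 and 10.36 in shCTRL cells. The shLSD1 arrays lay above all 9 others. Its change with shLSD1 was 0.21 (95% interval 0.07 to 0.34, adjusted p = 0.15), the largest of any hydrolase in that comparison, and did not pass the test.

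The remaining hydrolases and activators showed no call in any comparison. They were CTSA, GLA, GLB1, GAA, HEXA, NEU1, PSAP, NAGLU and SGSH, enzymes and cofactors that act on glycoproteins, glycolipids, glycogen and heparan sulfate. Their changes against control stayed between -0.20 (GLA, alpha-galactosidase A, in the double knockdown) and 0.17 (GLA with shLSD1). In the double against the shLSD1 knockdown, GLA had a change of -0.37 (adjusted p = 0.0768 from limma), with all arrays lower. That change was called as a fall in some alternatives. For the 19 hydrolases as a class, 12 changes were above 0 in the double knockdown, 10 with shUBE4B and 12 with shLSD1, with medians of 0.05, 0.03 and 0.07.

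**Figure D3:**
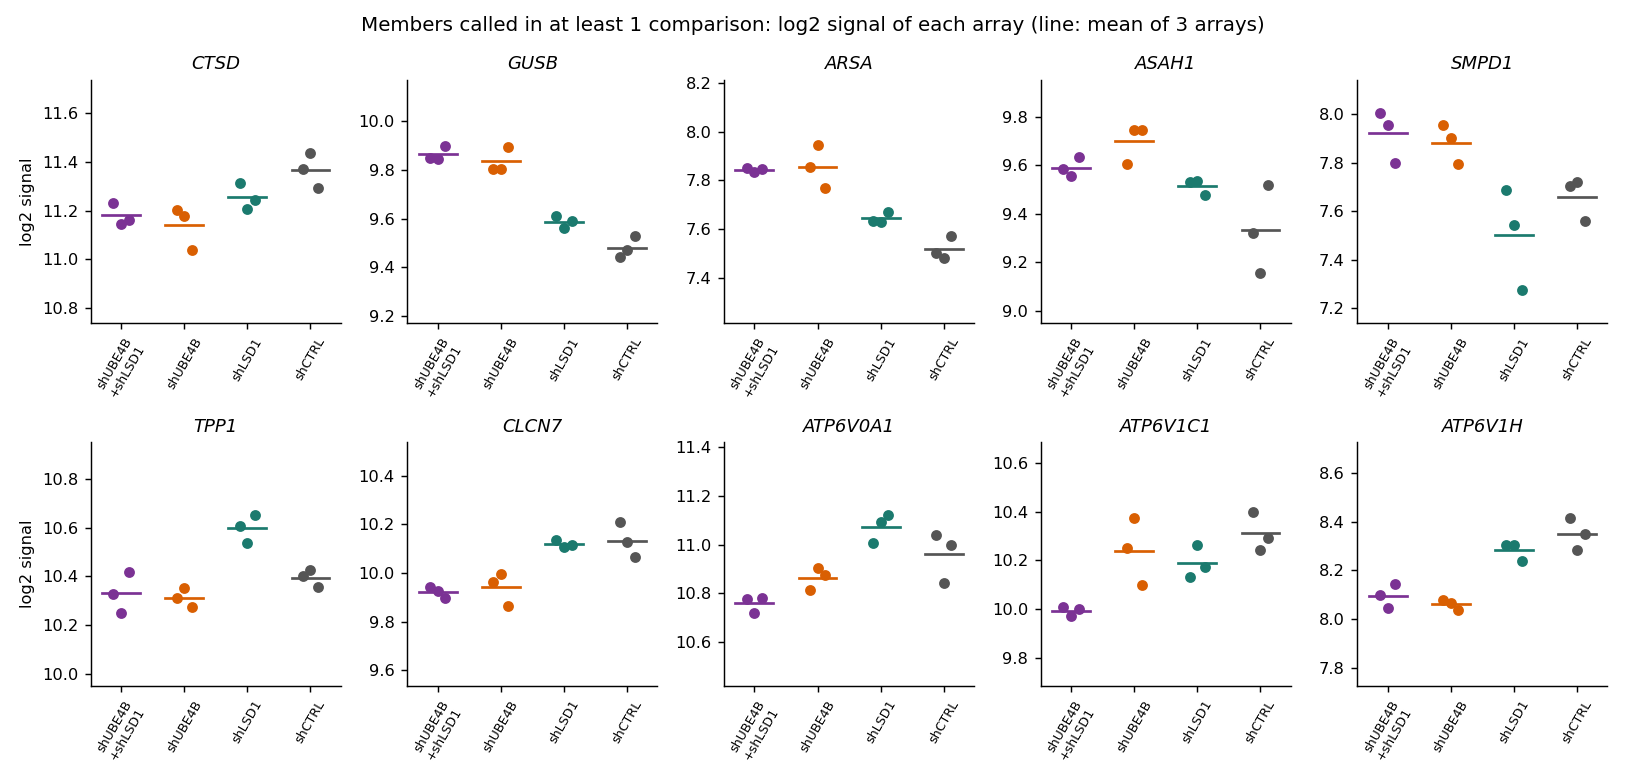
Log2 signal of each array for the 10 members called in at least 1 comparison, by group from shUBE4B+shLSD1 to shCTRL, with a line at the mean of 3 arrays and the same span of 1 log2 unit on each vertical axis. GUSB and ARSA are higher on all 6 arrays with shUBE4B than on the other 6, and ATP6V1H is lower on all 6.

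Among the 6 membrane proteins, 1 was called against control. CLCN7, the chloride-proton exchanger of lysosomes (transcript cluster 7998510), had log2 signals of 9.94, 9.93 and 9.90 in shUBE4B+shLSD1 cells, 9.96, 9.99 and 9.87 in shUBE4B cells, 10.14, 10.11 and 10.11 in shLSD1 cells, and 10.21, 10.13 and 10.07 in shCTRL cells. All arrays of the double and the shUBE4B knockdown lay below all shLSD1 and shCTRL arrays. CLCN7 fell to 86.3% of control in the double knockdown (log2 change -0.21, standard error 0.06, adjusted p = 0.0472), and its change with shUBE4B was -0.19 (adjusted p = 0.0575). The call in the double knockdown was kept in 6 of 22 alternatives and was lost without any 1 of the 12 arrays except shCTRL replicate 3, with changes of -0.25 to -0.17. SCARB2, the receptor that carries glucocerebrosidase to lysosomes, had log2 signals of 8.76, 8.89 and 9.12 in shUBE4B+shLSD1 cells, 8.75, 8.92 and 8.94 in shUBE4B cells, 9.12, 9.34 and 9.38 in shLSD1 cells, and 8.98, 8.83 and 9.17 in shCTRL cells. The shLSD1 arrays overlapped those of shCTRL, and the change of 0.28 (95% interval 0.05 to 0.52, adjusted p = 0.278) did not pass the test. LAMP1 and LAMP2, the abundant glycoproteins of the lysosomal membrane, had changes of 0.23 and 0.22 with shLSD1 and of -0.05 and 0.17 in the double knockdown. The calcium channel MCOLN1 and the tetraspanin CD63 stayed between -0.07 and 0.15 in the 3 comparisons. The class median was -0.02 in the double knockdown, -0.06 with shUBE4B and 0.18 with shLSD1. With shLSD1 the median was 0.02 over 28 other membrane proteins and -0.01 over all genes, and 0 of the 6 members were called.

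V-ATPase genes fell where they were called, and ATP6V1B2 stood just short of a rise with shUBE4B (log2 change 0.19, adjusted p = 0.0507 from limma). ATP6V1B2 was called as risen there with trend and robust eBayes, with a replicate block and without the 40% dimmest genes. ATP6V1H, subunit H of the V1 part, which couples V1 to V0 (transcript cluster 8150797), had log2 signals of 8.10, 8.05 and 8.14 in shUBE4B+shLSD1 cells, 8.08, 8.07 and 8.04 in shUBE4B cells, 8.30, 8.31 and 8.24 in shLSD1 cells, and 8.42, 8.28 and 8.35 in shCTRL cells. All 6 arrays with shUBE4B lay below all 6 arrays without it. ATP6V1H fell to 83.9% of control in the double knockdown (log2 change -0.25, standard error 0.06, adjusted p = 0.0182) and to 81.8% with shUBE4B (-0.29, standard error 0.06, adjusted p = 0.00869). ATP6V1C1, subunit C of the V1 part, which holds the stalks of the pump together (transcript cluster 8147724), had log2 signals of 10.01, 9.97 and 10.00 in shUBE4B+shLSD1 cells, 10.25, 10.37 and 10.10 in shUBE4B cells, 10.13, 10.26 and 10.17 in shLSD1 cells, and 10.40, 10.24 and 10.29 in shCTRL cells. The double knockdown arrays lay below all 9 others. ATP6V1C1 fell to 80.2% of control with both shRNAs (log2 change -0.32, standard error 0.07, adjusted p = 0.0203), and its change was -0.07 with shUBE4B and -0.12 with shLSD1. ATP6V0C, the proton-carrying ring subunit, had the largest V-ATPase change with shLSD1, -0.19 (adjusted p = 0.326), with signals of 10.84, 10.85 and 10.64 on the shLSD1 arrays and 11.03, 11.02 and 10.85 on the shCTRL arrays, which overlapped. Without shCTRL replicate 1, shUBE4B+shLSD1 replicate 1 or shUBE4B+shLSD1 replicate 2, only GUSB and ARSA of the 37 members were called in the double knockdown, and without shUBE4B+shLSD1 replicate 3 the number was 3 (GUSB, ARSA and ATP6V1H).

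As a class, all 12 V-ATPase changes were below 0 in the double knockdown, from -0.32 to -0.0046, against 53.1% of all genes. The value of ATP6V1B2 turned above 0 where arrays were centred on their medians. Of 16 other V-ATPase subunits and assembly factors, 9 changes were below 0 and 7 above in the double knockdown. The median of the 12 members was -0.11 in the double knockdown (-0.01 over all genes), -0.05 with shUBE4B and -0.05 with shLSD1. By array, the median difference from the control mean was -0.11, -0.11 and -0.13 on the double knockdown arrays, -0.01, -0.06 and -0.07 on the shUBE4B arrays, -0.02, -0.04 and -0.11 on the shLSD1 arrays, and 0.07, -0.06 and -0.03 on the shCTRL arrays. The double knockdown arrays lay below all shCTRL arrays, and 1 shLSD1 array lay level with them. For 6 of the 12 genes (ATP6V0A1, ATP6V0D1, ATP6V1C1, ATP6V1F, ATP6V1H and the accessory subunit ATP6AP1) all double knockdown arrays were below all shCTRL arrays, which held for 11.3% of all genes. Without shCTRL replicate 1 the count below 0 was 9 of 12, with ATP6V1B2, ATP6V1D and ATP6V1E1 above 0 and a median of -0.07, and without shUBE4B+shLSD1 replicate 2 it was 11 of 12. The 4 genes of the V0 part had a median of -0.13 and the 7 of the V1 part one of -0.10.

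**Figure D4:**
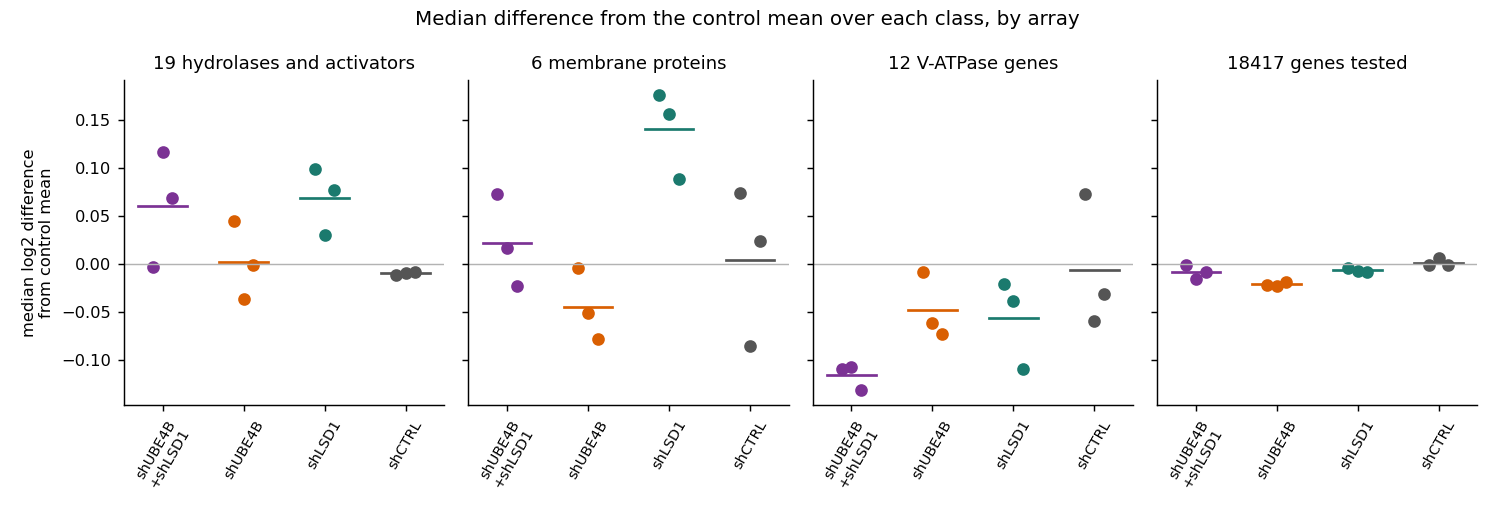
Median log2 difference from the mean of the shCTRL arrays over the hydrolases, the membrane proteins, the V-ATPase genes and all genes tested, for each array by group, with a line at the mean of 3 arrays. The 3 double knockdown arrays are at -0.11, -0.11 and -0.13 for the V-ATPase genes, and the 3 shLSD1 arrays at 0.18, 0.16 and 0.09 for the membrane proteins.

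Counts of members whose arrays did not overlap between groups can be set beside the same share of all genes. Against control, 13 of 37 members did not overlap in the double knockdown (4 higher, 9 lower), with 21.9% of all genes. The number was 12 with shUBE4B (5 higher, 7 lower), with 30.3% of all genes, and 6 with shLSD1 (5 higher, 1 lower), with 16.6% of all genes. Between the double and the shUBE4B knockdown 8 members did not overlap (3 higher, 5 lower), with 23.1% of all genes, and between the double and the shLSD1 knockdown 18 did not (7 higher, 11 lower), with 23.0% of all genes.

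With shLSD1 alone no member was called in limma. At an unadjusted p under 0.05, 8 of 37 members (21.6%) and 13.4% of all genes passed, and the methods' t-test gave 4 members unadjusted and 0 after adjustment. The 95% intervals of the members reached at most 0.52 from 0 (SCARB2).

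The double knockdown was also set against each single knockdown. Against the shLSD1 knockdown, 4 members were called in the double knockdown, with 2.79% of all genes called. SMPD1, with the signals given above, rose by 0.42 (1.34-fold, standard error 0.10, adjusted p = 0.0391) and GUSB by 0.28 (standard error 0.06, adjusted p = 0.0186). TPP1 fell to 83.1% of the shLSD1 level (-0.27, standard error 0.06, adjusted p = 0.0377). ATP6V0A1, subunit a of the V0 part (transcript cluster 8007228), had log2 signals of 10.78, 10.72 and 10.78 in shUBE4B+shLSD1 cells, 10.81, 10.90 and 10.88 in shUBE4B cells, 11.00, 11.09 and 11.12 in shLSD1 cells, and 11.04, 10.84 and 11.00 in shCTRL cells. Its double knockdown arrays lay below all 9 others. ATP6V0A1 fell to 80.4% of the shLSD1 level (-0.31, standard error 0.07, adjusted p = 0.0231), and its change against control was -0.20 (adjusted p = 0.0834). The number of members called was 0 without shUBE4B+shLSD1 replicate 1, shUBE4B+shLSD1 replicate 2 or shLSD1 replicate 3, 1 (CTSL) without shLSD1 replicate 2, and 2 without shUBE4B+shLSD1 replicate 3 (GLA and TPP1), shUBE4B replicate 1 or replicate 2 (GUSB and ATP6V0A1 each time) or shLSD1 replicate 1 (SMPD1 and ATP6V0A1).

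Against the shUBE4B knockdown, 0 members were called in the double knockdown by limma, with 0.147% of all genes called. At an unadjusted p under 0.05, 3 members (8.11%) and 13% of all genes passed in limma. The methods' t-test gave 6 members unadjusted and 0 after adjustment, where it called 1 of all genes. The largest difference was 0.29 for CTSZ (95% interval 0.09 to 0.48, adjusted p = 0.223), and that of ATP6V1C1 was -0.25 (adjusted p = 0.207). The interaction, which asks whether the double knockdown differs from the sum of the single ones, was called for 0 members and 0% of all genes in limma, with 4 members (10.8%) and 13.1% of all genes at an unadjusted p under 0.05.

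Other genes of the pathway gave context for the 37 members, and their counts stand beside 7.56% of all genes called in the double knockdown and 10.1% with shUBE4B. Of 32 other genes of lysosomal enzymes, activators and binding proteins, 6 rose and 1 fell in the double knockdown (median log2 change 0.03), and 6 rose and 3 fell with shUBE4B (median 0.07). They included the cysteine protease CTSO (log2 change 0.45 in the double knockdown and 0.50 with shUBE4B), the heparan sulfate acetyltransferase HGSNAT (0.36 and 0.31), the beta-mannosidase MANBA, which rose by 0.39 with shUBE4B, and the alpha-mannosidase MAN2B1, which fell to 74.7% of control with shUBE4B. CTSO lies among the 40% dimmest genes, and so does LAMP3 below. Of 28 other membrane proteins, 2 rose and 2 fell in the double knockdown (median 0.02), and 1 rose and 3 fell with shUBE4B (median 0.03). In the double knockdown LAMP3, an inducible relative of LAMP1, rose by 0.77 (standard error 0.13, adjusted p = 0.00294), while the sialomucin CD164 fell to 64.6% of control (log2 change -0.63, standard error 0.09, adjusted p = 0.000973), MFSD1, a transporter of the lysosomal membrane, fell to 80.8%, and CD68 fell with shUBE4B to 80.6%.

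Of 16 other V-ATPase subunits and assembly factors, 1 rose and 2 fell in the double knockdown (median log2 change -0.04), and 3 rose and 2 fell with shUBE4B (median 0.01). ROGDI and DMXL1, whose yeast relatives belong to a complex that joins V1 to V0, rose (ROGDI with both shRNAs by 0.60, standard error 0.06, adjusted p = 0.000128, and DMXL1 by 0.38 with shUBE4B). The subunit genes ATP6V1G1 and ATP6V0E2 fell, to 78.3% of control with shUBE4B and to 79.1% in the double knockdown. Of 16 genes that sort enzymes to lysosomes, 3 fell in the double knockdown (median -0.06), and 5 fell and 2 rose with shUBE4B (median -0.04). GNPTAB, the enzyme that starts the mannose 6-phosphate tag on hydrolases, had log2 signals of 8.33, 8.61 and 8.40 in shUBE4B+shLSD1 cells, 8.33, 8.50 and 8.39 in shUBE4B cells, 9.15, 9.15 and 9.19 in shLSD1 cells, and 9.04, 8.83 and 9.04 in shCTRL cells. Both shUBE4B groups lay below all other arrays. GNPTAB fell to 69.4% of control in the double knockdown (log2 change -0.53, standard error 0.08, adjusted p = 0.00209) and to 67.6% with shUBE4B (-0.56, standard error 0.08, adjusted p = 0.00168). The sorting receptor SORL1 fell to 65.9% and 65.7% in the same comparisons, the adaptor GGA2 fell to 84% in the double knockdown, and the retromer subunit VPS35 rose by 0.43 with shUBE4B.

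Of 22 regulators of lysosomes and of mTORC1 at their surface, none was called in the double knockdown (6, or 27.3%, at an unadjusted p under 0.05 in limma, against 20.7% of all genes; median log2 change -0.01). With shUBE4B 11 regulators (50%) passed an unadjusted p under 0.05 in limma, against 27.5% of all genes. With shLSD1 0 did, against 13.4% of all genes. The folliculin partner FNIP2 rose by 0.34 with shUBE4B, and the mTORC1 activator RHEB and the Ragulator subunit LAMTOR2 fell to 84.2% and 84.3% of control. Of 10 genes of lysosome fusion and transport (median -0.16 in the double knockdown and -0.04 with shUBE4B), 2 fell in both comparisons: the SNARE VAMP7, to 82.4% of control in the double knockdown and 77.6% with shUBE4B, and the HOPS subunit VPS39, to 83.4% and 82.1%. With shLSD1 the only call in any of these 6 lists was the peptide and histidine transporter SLC15A4, which fell to 82.5% of control (log2 change -0.28, standard error 0.06, adjusted p = 0.049).

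**Figure D5:**
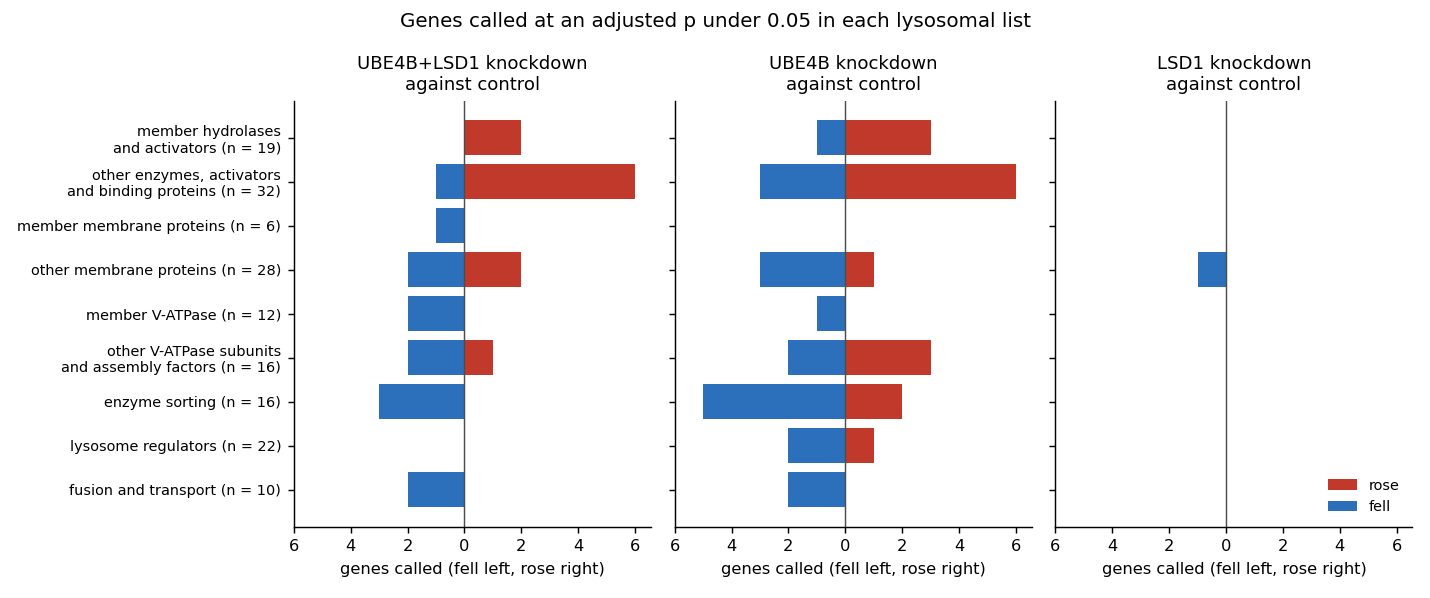
Number of genes called in each lysosomal list against shCTRL in the double knockdown (left), the shUBE4B knockdown (middle) and the shLSD1 knockdown (right), with genes that rose as bars to the right and genes that fell as bars to the left. Enzymes, activators and binding proteins outside the member list had 6 genes that rose in both the left and the middle panel, and the right panel holds 1 gene.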

How the data were processed

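Total RNA of 12 samples (4 groups of 3, labelled as biological replicates) was hybridised to Affymetrix Human Gene 1.0 ST arrays. The deposited values are log2 signals that the authors obtained with RMA in Partek (its usual steps are background correction, quantile normalisation and summary of probes), annotated on hg19. Versions are not given in the sources used here. Quantile normalisation gives arrays almost the same distribution (their medians were 7.00 to 7.06) and hides any shift in the RNA content of a cell. The labels name a whole-transcript labelling kit and the supplementary methods a 3' kit.

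Of 33297 rows, 19460 carried 1 symbol, 1754 several and 12083 none; the last 2 kinds were left out. The brightest row stood for each of the resulting 18417 genes. The groups were fitted by limma 3.58.1 in R 4.3.3 (4 group means, no block, 8 residual and 5.13 prior degrees of freedom), with Benjamini-Hochberg adjustment over all genes. Same-numbered arrays deviated together in some pairs and not in others, so whether the numbers pair the arrays was not settled. The script was tested on simulated data. The number of arrays limits the precision. The members and the pathway lists were chosen with earlier results of these data known. Named were members called in any comparison, the member of each class with the largest change in each comparison with control, and up to 4 called genes per list with the largest change. Alternatives were each array left out, trend and robust eBayes, limma on the arrays compared, array weights, a replicate block, median centring, a further quantile normalisation, all rows or their mean per gene, genes above the 40% dimmest, the methods' t-test, a threshold of 1.2-fold with unadjusted p, and 3 spellings of the motif. Promoter windows were searched and figures drawn with Python 3.11.15, pandas 2.3.3 and matplotlib 3.10.9. Lists were not complete: 8 other enzyme genes, 5 V-ATPase genes, 1 sorting gene, 1 regulator and 3 fusion genes were not analysed here.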

Additional observations from a re-analysis of the deposited data

Results flagged for a closer look

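TPP1 had changes of opposite sign in the single knockdowns, neither of which passed the test. Its log2 change against control was -0.0822 with shUBE4B (adjusted p = 0.411 from limma), with all 3 arrays below those of shCTRL. With shLSD1 it was 0.21 (adjusted p = 0.15 from limma), with all 3 arrays above those of shCTRL. The comparisons share the shCTRL arrays, and the difference between the single knockdowns was not tested. ATP6V1B2, subunit B of the V1 part, had log2 signals of 10.62, 10.55 and 10.63 in shUBE4B+shLSD1 cells, 10.78, 10.84 and 10.78 in shUBE4B cells, 10.65, 10.74 and 10.64 in shLSD1 cells, and 10.65, 10.61 and 10.56 in shCTRL cells. Adding shUBE4B changed it by 0.19 in cells without shLSD1 (all arrays higher, adjusted p = 0.0507) and by -0.0756 in cells with shLSD1 (all arrays lower, adjusted p = 0.604), and the interaction of -0.27 (95% interval -0.44 to -0.09, adjusted p = 0.244 from limma) did not pass the test. No outlier test of single values was run in groups of 3 arrays.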

How the results depend on the processing

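No called result reversed. Of 14 called member results, 0 were kept in all 22 alternatives and 3 in all but the methods' t-test (GUSB in the double and the shUBE4B knockdown, ARSA in the shUBE4B knockdown); the others were kept in 6 to 20. Of 208 results not called, 192 were called in no alternative. Counts of members called are given below for the double knockdown against control (5), shUBE4B against control (5) and the double against the shLSD1 knockdown (4). With trend and robust eBayes, members called were 8, 9 and 7 (1840, 2372 and 781). With limma on the arrays compared they were 1, 2 and 2 (420, 693 and 413). Without the 40% dimmest genes they were 8, 8 and 8 (1942, 2312 and 801). The methods' t-test gave 0 in each after adjustment (48, 46 and 9). With each array left out, members called were 2 to 6, 3 to 6 and 0 to 5 (862 to 1549, 909 to 2328 and 159 to 808). In the other 3 comparisons no member was called with any array left out. A fit of all rows left 2 (277) in the comparison with shLSD1. At 1.2-fold and an unadjusted p under 0.05 the counts were 3 (1695) in the double knockdown, 6 (2299) with shUBE4B and 8 (1028) against the shLSD1 knockdown. They were 1 (775) in the shLSD1 knockdown, 1 (759) against the shUBE4B knockdown and 3 (1768) in the interaction. With the replicate number as a replicate block, 9 members (2309) were called with shUBE4B and 7 (686) against the shLSD1 knockdown. The correlation of deviations was -0.08 to 0.33 for same-numbered arrays and -0.34 to 0.25 for arrays of different numbers. Whether the numbers pair the arrays was not settled by these values. Fewer arrays or genes entered the fits so named, and the cause was not tested otherwise. Median centring and the further quantile normalisation moved no count by over 1.5 times. With the motif spelled TCACGTGA, 5 members held it, and with GTCACGTG 8, against 11 with the core. CTSZ fell below the limit for dim genes and has no value without them, and signal over background is not given by the values used here.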
